A study of Mus musculus with 57 samples.

Results

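Mouse pancreas 72 hours into caerulein pancreatitis was compared with control pancreas. The regions were chosen by their treatment label, which put 4 of the 57 regions of the series at 72 hours and 7 in the control. RNA was counted in formalin-fixed, paraffin-embedded sections (5 µm) with the GeoMx Whole Transcriptome Atlas, in which barcoded probes bind RNA in the tissue, light releases the barcodes of a chosen square (about 650 µm a side) and the barcodes are counted by sequencing. All animals were C57BL/6 mice. For the 72-hour group, caerulein was injected into the peritoneum of animals 8 to 9 weeks old, hourly for 8 hours on 2 days in a row. The same age is listed for the control and for every other group. The sources used here do not give what the control animals received, how many animals stand behind each group or the event from which the 72 hours run. Pieces of tissue stood on 2 tissue arrays, of which array 1 held 1 region at 72 hours and 4 control regions, and array 2 held 3 of each. The rest of the course, used for comparison, was sampled at 3, 12, 24 and 48 hours and at 5, 7, 14 and 30 days.

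Caerulein is an analogue of cholecystokinin, the gut hormone that makes pancreatic acinar cells secrete their digestive enzymes. Given in excess it overstimulates these cells, so that digestive zymogens are activated inside them, the tissue swells and inflammatory cells enter. In mice the injury is followed by recovery, in which acinar cells lower their enzyme messages for a time, divide and then take up enzyme production again. Dividing cells need new histones for the DNA they copy, and most histone genes are transcribed mainly during DNA synthesis.

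No label says which regions came from 1 animal. The counts of a group's regions were therefore added within each array, and each test ran on these sums, 2 for each group (n = 2). The p-values therefore measure the spread between sums, pooled over the 20 sums of all 10 groups, and this spread may be technical. Differences are log2 values ± SE of 72 hours minus control from edgeR's quasi-likelihood test, with array as a term and p-values adjusted by the Benjamini-Hochberg method over all 2688 genes tested. A gene was called at an adjusted p under 0.05, and "rose" and "fell" are used of called genes. Levels are in CPM, counts per 1e6 after TMM scaling, and background is the mean of 209 negative probes that match no transcript. A fold is given where the control level is at least 2 times that background. Total target counts of the 11 regions ran from 1036609 to 5035488, and the negative-probe mean ran from 42.1 to 186 counts. The 72-hour region of array 1 was the shallowest of the 11.

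Of 2688 genes tested, 29 were called (1.08%), of which 18 rose (0.67% of those tested) and 11 fell (0.409%). The genes that fell were mostly acinar digestive enzyme and zymogen granule genes. The 18 that rose held 7 histone genes, 2 trypsin-like targets, 2 regenerating lectin genes and 7 others. In each of the 29 the sign was the same on both arrays, and the 4 regions at 72 hours lay wholly outside the range of the 7 control regions. Over all genes tested, 80 lay wholly above the control regions (2.98%) and 93 wholly below (3.46%). Among the 18 genes that rose, 12 had a control level under 2 times background, so that part of their control count is background; 0 of the 11 that fell had. The negative probes themselves lay lower at 72 hours after scaling, with a log2 difference of -0.25 on array 1 and -0.07 on array 2. The number of calls depended on single sums: 16 were called without the control sum of array 1 (14 of them among the 29), 5 without that of array 2 (5 among the 29), 18 without the 72-hour sum of array 1 (12 among the 29) and 61 without that of array 2 (22 among the 29). Ctrc, 1810009J06Rik, H4c17, H4c11 and H2bc8 were called in all 4 of these fits. Scaled to total counts alone, 1517 genes were called and 98.8% of them lay higher, against 62.1% of the 29, with a median of all genes of 0.43 in place of 0.0066. The values that follow are therefore relative to the middle of all genes.

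**Figure D1:**
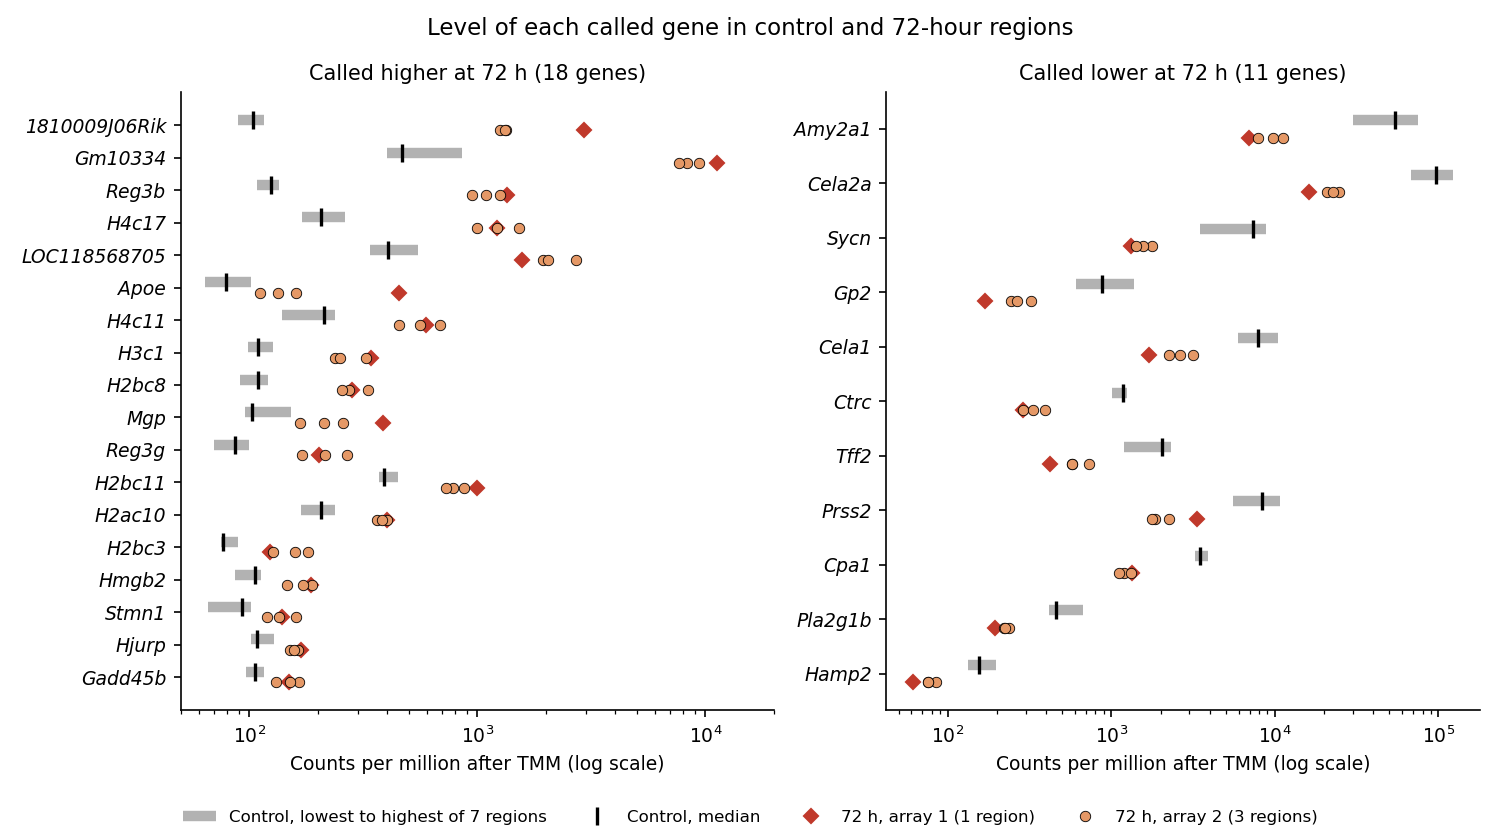
Level of each of the 29 called genes in CPM (log axis); grey bars run from the lowest to the highest of the 7 control regions with the median as a tick, diamonds are the 72-hour region of array 1 and circles the 3 of array 2. In every row the 72-hour points lie outside the grey bar, and the diamond of Apoe, at 452 CPM, lies far from its 3 circles at 111 to 160 CPM.

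The digestive enzyme genes, which make the zymogens and enzymes of pancreatic juice, were the largest block of lower genes. Of 22 tested, 7 fell and 2 rose, with a median of -1.29 against 0.0066 over all genes, and 20 of the 22 lay below 0. Summed over the list, the control regions held between 303747 and 492911 CPM with a median of 388560, and the 72-hour regions between 161752 and 184128 CPM. The 2 ranges did not overlap. In bulk regions fewer acinar cells and less enzyme RNA per acinar cell cannot be told apart. The tissue label was checked on the same list: 21 of the 24 measured enzyme genes exceeded 2 times background in most control regions and 22 did so in most 72-hour regions. With scaling to total counts the list median was -0.86, and with scaling to the negative probes -1.14. The array-1 sums gave a median of -1.21 and the array-2 sums -1.29.

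Acinar enzyme genes are known to share a bipartite element bound by the acinar factor PTF1, made of an E-box and a TC-box. The promoters shown are those of the 3 enzyme genes that fell and hold both sets of letters, so their matches are no finding; the stretches of Amy2a1 and Pla2g1b hold neither and that of Cpa1 holds TTTCCC alone. The stretches are the 250 bases before the transcription start in RefSeq (GRCm38.p6). Capitals mark CACCTG, searched as the E-box, and TTTCCC, searched as the TC-box, on either strand; both were chosen after the genes were known.
Cela1 (chr15:100687921-100688170, minus strand): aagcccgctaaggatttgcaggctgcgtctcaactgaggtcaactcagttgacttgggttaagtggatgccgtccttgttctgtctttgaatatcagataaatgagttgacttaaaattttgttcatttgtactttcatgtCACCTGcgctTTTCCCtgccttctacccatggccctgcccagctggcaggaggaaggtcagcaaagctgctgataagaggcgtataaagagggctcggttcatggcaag
Prss2 (chr6:41521526-41521775, plus strand): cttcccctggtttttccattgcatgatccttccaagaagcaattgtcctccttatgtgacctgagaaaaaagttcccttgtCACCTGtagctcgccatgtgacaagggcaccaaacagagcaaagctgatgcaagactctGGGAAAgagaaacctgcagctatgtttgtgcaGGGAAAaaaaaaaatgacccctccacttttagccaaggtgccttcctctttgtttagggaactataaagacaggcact
Cela2a (chr4:141826006-141826255, minus strand): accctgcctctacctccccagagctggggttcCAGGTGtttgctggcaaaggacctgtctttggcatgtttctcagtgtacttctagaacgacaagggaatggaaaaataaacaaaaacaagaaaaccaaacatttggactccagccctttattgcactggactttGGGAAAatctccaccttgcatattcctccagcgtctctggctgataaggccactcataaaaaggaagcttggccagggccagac
In Cela1 the E-box letters start 109 bases before the start and the TC-box letters 99 bases before it. In Prss2 they start at 169 bases and at 110 and 78 bases, the latter pair on the reverse strand, and in Cela2a at 218 and 84 bases, both reversed. No 2 of these matches overlap. Of the 9 enzyme and granule genes that fell, 8 had a promoter in the table, and 3 of these held CACCTG and 4 held TTTCCC. Among all 32851 promoter stretches of this length 17.2% held CACCTG and 21.9% held TTTCCC. A match describes the letters and is not a measured binding site.

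Amy2a1, a pancreatic amylase that digests starch, gave the largest fall. In the control its level was 30114 CPM at the lowest, 54358 at the median and 75173 at the highest, and the 72-hour regions stood at 6899 CPM on array 1 and at 9684, 11190.3 and 7922 on array 2. Every 72-hour region lay below every control region, and the array-1 region was the lowest. The fitted difference was -2.70 ± 0.51, a 6.51-fold fall (adjusted p = 0.009). Its probe matches 5 places on chromosome 3, in Amy2a1 to Amy2a5, so these genes are counted together. Without the 72-hour sum of array 1 it stood at -2.39 (adjusted p = 0.198), and without the control sum of array 2 at -2.42 (adjusted p = 0.126).

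Cela2a, a pancreatic elastase, ran in the control from 67696 over a median of 96248 to 122362 CPM. At 72 hours it stood at 16189, 24678, 20729 and 22811 CPM. The regions did not overlap, and the fall was 4.99-fold (-2.32 ± 0.50, adjusted p = 0.025). Cela1, a second elastase gene, fell by 1.89 ± 0.40 on the log2 scale, from a control range of 5969 to 10412 CPM to between 1689 and 3164 CPM. Ctrc, a chymotrypsin that also degrades trypsin, ran from 1017 over 1183 to 1251 CPM in the control and stood at 288 on array 1 and 391, 289 and 332 on array 2. This was a 3.68-fold fall (-1.88 ± 0.28, adjusted p = 0.00149) and the lowest adjusted p among the 7 enzyme genes that fell. Ctrc was called with any 1 of the 4 sums left out. Ctrb1, chymotrypsinogen B, was not called at -0.21 ± 0.41 (adjusted p = 0.907), with 72-hour regions between 44756 and 50288 CPM, of which the lowest lay under the control range of 46544 to 72073 and the others inside it. Cela3b at -0.84 ± 0.42 and Ctrl at -1.27 ± 0.52 were not called either.

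Cpa1, a carboxypeptidase that trims digested peptides, fell by 1.45 ± 0.32 (adjusted p = 0.0316). Its control regions ran from 3263 to 3927 CPM and its 72-hour regions stood at 1334, 1192, 1316 and 1116. Pla2g1b, a secreted phospholipase, fell by 1.14 ± 0.21, from 417 to 669 CPM in the control to between 195 and 237. Other lipid-digesting genes were lower without being called. Pnlip, pancreatic triglyceride lipase, ran from 28981 over 31652 to 37567 CPM in the control and stood at 4013, 7418, 5843 and 6609, at -2.59 ± 0.64 (adjusted p = 0.0632). Its 72-hour regions too lay below every control region. Clps, the cofactor colipase, stood at -1.43 ± 0.46, Cel at -1.40 ± 0.54 and the ribonuclease gene Rnase1 at -1.62 ± 0.49. Of the 13 enzyme genes not called, each lay below 0. Of the 7 falls, Ctrc was the 1 still called when the 72-hour sum of array 1 or the control sum of array 2 was left out. Leaving out the control sum of array 1 kept 3 of the 7 calls, and leaving out the array-2 sum at 72 hours kept 5. Cpa1 was not called in any of the 4 fits (adjusted p from 0.0823 to 0.271). Over these fits Cela2a ranged from -2.75 to -1.98, Cela1 from -2.40 to -1.51, Cpa1 from -1.54 to -1.36 and Pla2g1b from -1.39 to -0.95.

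The trypsinogen group went both ways. Prss2, anionic trypsinogen, fell by 1.76 ± 0.37 (adjusted p = 0.0201), from a control of 5553, 8393 and 10804 CPM (lowest, median, highest) to 3337 on array 1 and 2258, 1854 and 1770 on array 2. The fall was smaller on array 1 (-1.20) than on array 2 (-2.27), a difference that was not tested. With 1 sum left out it stood between -2.08 and -1.38 and was called in 1 of the 4 fits, that without the control sum of array 1. 2210010C04Rik and Try4, further trypsinogen genes, stood at -1.31 ± 0.42 and -0.55 ± 0.42 and were not called.

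Gm10334, a trypsin-like gene of the same cluster, rose 17.2-fold (4.10 ± 0.67, adjusted p = 0.0035). In the control it ran from 403 over 468 to 854 CPM, and at 72 hours it stood at 11254, 8259, 7676 and 9341 CPM, so that the lowest 72-hour region was far above the highest control region. 1810009J06Rik, a further trypsin-like gene there, ran from 89.4 over 103 to 116 CPM in the control, at 1.32 ± 0.12 times background (SD, n = 7). It stood at 2928 CPM on array 1 and at 1339, 1258 and 1318 on array 2, a log2 rise of 4.29 ± 0.59 (adjusted p = 8.69e-04). The array-1 region was again the highest. The probe of Gm10334 matches 3 places on chromosome 6 (GRCm38.p6), chr6:41442725-41442759 in Gm10334 itself, chr6:41396717-41396751 in Gm5771 and chr6:41374268-41374302 in Prss3, and that of 1810009J06Rik also matches Gm2663 at chr6:40995946-40995987. Neither probe tells these genes apart, so each count may come from any of them. Gm10334 was called with either 72-hour sum left out, and stood at 3.88 (adjusted p = 0.0763) and 4.34 (adjusted p = 0.0817) without the control sums of array 1 and array 2. 1810009J06Rik was called with any 1 of the 4 sums left out. The annotation places them, like Prss2, inside the T cell receptor beta locus. Summed over the group, the trypsinogen level ran from 26532 to 35920 CPM at 72 hours against 36502 to 52849 in the control, without overlap.

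Of 9 zymogen granule genes tested 2 fell and none rose, with a median of -0.09. Sycn, which encodes syncollin of the granule membrane, ran from 3495 over 7373 to 8883 CPM in the control and stood at 1321, 1762, 1564 and 1422, a 4.98-fold fall (-2.32 ± 0.40, adjusted p = 0.0041). Gp2, the main granule membrane glycoprotein, fell 4.15-fold (-2.05 ± 0.35), from 606 to 1374 CPM down to 170 on array 1 and 322, 243 and 264 on array 2. Neither gene's regions overlapped. Zg16 stood at -1.83 ± 0.51 (adjusted p = 0.125), and the granule traffic genes Rab3d, Vamp8, Vamp2 and Snap23 stood between -0.19 and 0.06. The list median was -0.37 after background subtraction and changed sign with the scaling, to 0.07 by the negative probes and 0.34 by total counts, while Sycn and Gp2 stayed called as falls under both. Without the 72-hour sum of array 1 neither was called (-2.04, adjusted p = 0.1, and -1.75, adjusted p = 0.0905), nor was either without the control sum of array 2 (-1.95, adjusted p = 0.102, and -1.71, adjusted p = 0.11).

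Genes that set or serve the acinar state gave no call. Of 10 acinar regulator and signalling genes 0 were called, where 1.08% of all genes tested were. Of the 10, 7 lay below 0. In 3 of the 10 the 72-hour regions lay wholly below the control regions, against 3.46% of all genes tested. The list median of -0.24 was -0.58 after background subtraction and turned to 0.18 with total-count scaling. Of the 13 measured, 6 exceeded 2 times background in most control regions. Rbpjl, a subunit of the PTF1 complex, stood at -0.34 ± 0.42, Bhlha15 (Mist1), a factor of secretory cells, at 0.24 ± 0.24, Xbp1, a driver of secretory capacity, at -0.41 ± 0.21, and Cckar, the receptor for cholecystokinin, at -0.18 ± 0.20. In the pancreatitis stress list 0 of 7 genes tested were called. Nupr1, a stress-response gene of the injured pancreas, lay lower in each of the 4 regions (265 to 376 CPM) than in any control region (683 to 908 CPM) and was not called (-1.20 ± 0.38, adjusted p = 0.187). Spink1, an inhibitor of trypsin made by acinar cells, stood at -0.06 ± 0.32.

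Outside the enzyme and granule lists the other 2 genes that fell were Tff2 and Hamp2. Tff2, a secreted trefoil peptide, ran from 1187 over 2039 to 2314 CPM in the control and stood at 419, 735, 576 and 571 at 72 hours (-1.87 ± 0.32, adjusted p = 0.0041). Hamp2, a gene of the hepcidin family, ran from 133 over 156 to 196 CPM and stood at 61.6, 84.2, 76.0 and 75.6, close to background at 1.02 times the negative probes (-1.03 ± 0.15, adjusted p = 0.00169). All 4 regions were lower than all 7 in both genes. Tff2 lost its call without the 72-hour sum of array 1 (-1.55, adjusted p = 0.097), and without the control sum of array 2 neither was called (-1.71, adjusted p = 0.0817, and -0.999, adjusted p = 0.054).

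Histone genes were the largest group that rose. Of 19 histone genes measured 11 passed the filter on low counts, and 7 of these rose and 0 fell, with a median of 0.96. After background subtraction the median was 2.07 with 7 called, and with total-count scaling 11 of 11 were called at a median of 1.37. The filter admits a gene through any of the 57 regions. Of the 19 measured, 5 exceeded 2 times background in most control regions and 7 in most 72-hour regions. The summed level of the 19 genes was 2404 to 2561 CPM in the control and 4393 to 5667 CPM at 72 hours, without overlap. The 4 tested but not called were H2ac18 at 0.51 ± 0.18 and the linker histone genes H1f4 at 0.25 ± 0.21, H1f2 at 0.13 ± 0.12 and H1f0 at -0.06 ± 0.12. H1f0 is a replacement linker histone whose expression does not follow DNA synthesis.

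Promoters of 3 H2B genes that rose are shown. H2B promoters are known to carry an octamer bound by OCT1, and CCAAT boxes are common in histone promoters. The probe of H2bc11 matches 6 places on chromosome 13, so its count cannot be assigned to H2bc11 alone. The stretches are again the 250 bases before the start in RefSeq (GRCm38.p6). Capitals mark the octamer ATTTGCAT and the letters CCAAT, on either strand, so that a reversed CCAAT reads ATTGG; no 2 matches overlap.
H2bc8 (chr13:23571150-23571399, plus strand): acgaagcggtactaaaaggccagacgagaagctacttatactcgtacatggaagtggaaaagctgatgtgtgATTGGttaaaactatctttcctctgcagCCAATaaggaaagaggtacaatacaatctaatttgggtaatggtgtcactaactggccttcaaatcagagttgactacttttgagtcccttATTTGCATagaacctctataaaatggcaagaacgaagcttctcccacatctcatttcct
H2bc3 (chr13:23746484-23746733, plus strand): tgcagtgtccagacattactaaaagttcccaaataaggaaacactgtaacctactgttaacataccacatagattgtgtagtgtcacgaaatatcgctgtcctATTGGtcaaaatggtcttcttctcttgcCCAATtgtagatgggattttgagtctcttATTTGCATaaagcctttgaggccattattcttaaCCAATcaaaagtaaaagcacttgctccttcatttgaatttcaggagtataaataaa
H2bc11 (chr13:22042948-22043197, plus strand): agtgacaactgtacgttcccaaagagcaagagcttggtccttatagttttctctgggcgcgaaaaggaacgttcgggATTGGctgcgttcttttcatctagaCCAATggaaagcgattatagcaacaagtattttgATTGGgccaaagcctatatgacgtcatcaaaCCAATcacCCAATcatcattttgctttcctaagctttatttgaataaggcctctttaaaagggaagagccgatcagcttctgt
The octamer lies 59 bases before the start of H2bc8 and 90 bases before that of H2bc3, and its letters are not in the H2bc11 stretch, which holds CCAAT 5 times. Of the 7 histone genes that rose, 6 had a promoter in the table, 2 of them with the octamer and 4 with CCAAT. Over all 32851 stretches the shares were 1.6% for the octamer and 33.8% for CCAAT. The matches describe letters only.

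H4c17, an H4 core histone gene, had the smallest adjusted p of the comparison. It ran from 171 over 207 to 262 CPM in the control and stood at 1221 on array 1 and 1528, 995 and 1220 on array 2. All 4 regions lay above the control range, with a 6.00-fold rise (2.58 ± 0.25, adjusted p = 1.83e-05). H4c11, a second H4 gene, rose 3.14-fold (1.65 ± 0.20), from 139 to 238 CPM in the control to 593, 684, 455 and 559. H3c1, an H3 gene, ran from 98.5 to 126 CPM, at 1.42 times background, and stood at 341, 326, 238 and 251 (1.49 ± 0.24, adjusted p = 0.0027). In all 3 genes the 72-hour regions lay above every control region, on either array.

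H2bc8, an H2B gene, ran from 90.6 over 109 to 120 CPM in the control and stood at 282, 331, 274 and 254 at 72 hours (1.41 ± 0.18, adjusted p = 3.65e-04). H2bc11 rose 2.27-fold (1.18 ± 0.22), from 370 to 449 CPM to 998, 875, 781 and 726. H2ac10, an H2A gene, rose 1.94-fold (0.96 ± 0.19), and H2bc3 rose by 0.85 ± 0.16 from a control at 1.02 times background. No 72-hour region of these genes lay inside the control range. Probes of 5 of the 7 match several histone genes, so each of these counts may come from any of them. That of H2ac10 matches 11 places in H2A genes of the chromosome 13 cluster, and that of H4c17 matches H4c17, H4c9 and H4c18. The probes of H2bc11, H3c1 and H4c11 match 6, 4 and 2 places. Those of H2bc8 (chr13:23571436-23571470) and H2bc3 (chr13:23746791-23746825) match 1 place each. H4c17, H4c11 and H2bc8 were called with any 1 of the 4 sums left out, and between 3 and 6 of the 7 histone genes were called in each of these fits. The lowest count was that without the control sum of array 2, where H3c1 stood at 1.38 (adjusted p = 0.0881), H2bc11 at 1.09 (adjusted p = 0.208), H2ac10 at 0.85 (adjusted p = 0.276) and H2bc3 at 0.91 (adjusted p = 0.121).

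**Figure D2:**
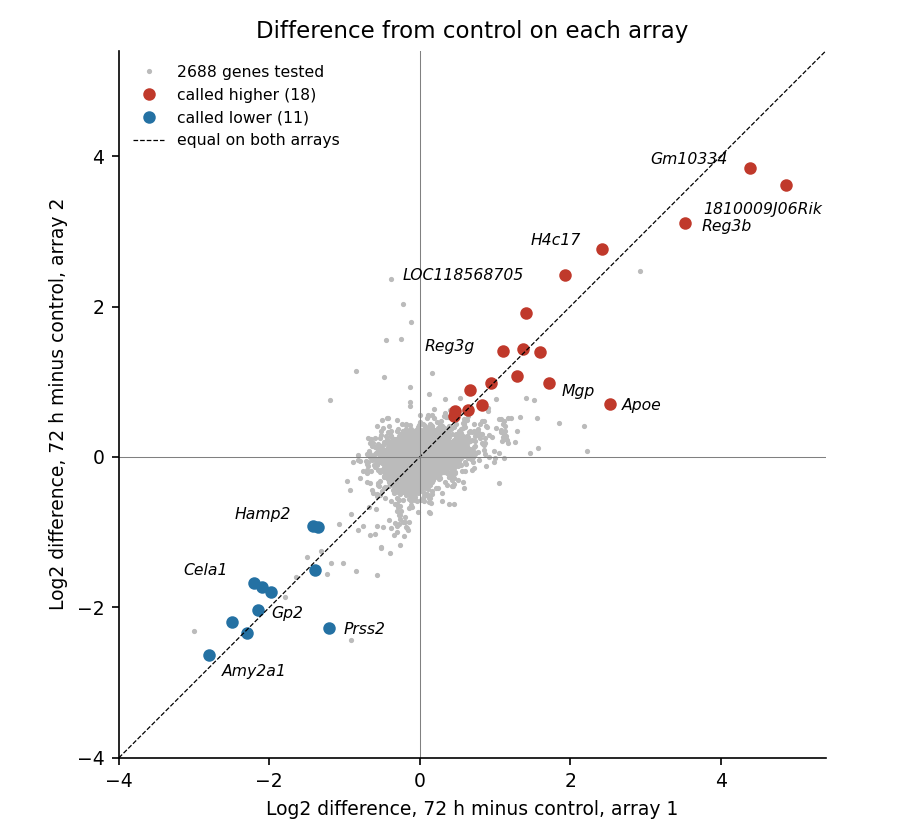
Log2 difference of 72 hours minus control on array 1 (horizontal axis) against array 2 (vertical axis) for the 2688 genes tested (grey), the 18 called higher (red) and the 11 called lower (blue), with a dashed line of equal differences. The called genes lie at the lower left and the upper right, near the line for H4c17 (2.42 and 2.77) and far from it for Apoe (2.52 and 0.70).

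Other genes of dividing cells were mostly near background. Of 51 listed cell division genes 31 were measured and 13 tested. Of the 13, 2 rose and 0 fell, where 0.67% of all genes tested rose. The median was 0.08, or 0.19 after background subtraction. Hmgb2, a chromatin protein of proliferating cells, ran from 86.7 over 106 to 112 CPM in the control and stood at 186, 188, 146 and 172 (0.74 ± 0.13, adjusted p = 0.0041). Its probe also matches a place on chromosome 4, in Gm20875 and Zfp993. Stmn1, stathmin, a regulator of microtubules in dividing cells, ran from 65.8 over 92.7 to 102 CPM and stood at 140, 161, 119 and 135 (0.62 ± 0.13, adjusted p = 0.0218). Neither gene's regions overlapped, and both were under 2 times background in the control. H2az1, a histone variant gene, stood at 0.66 ± 0.16 (adjusted p = 0.059), Pcna, the sliding clamp of DNA replication, at 0.22 ± 0.13, Mcm7, a subunit of the replicative helicase, at 0.18 ± 0.11 and Ccnb1, a mitotic cyclin, at 0.06 ± 0.10. Stmn1 was not called with any 1 of the 4 sums left out (0.56 to 0.69), and Hmgb2 was called without either 72-hour sum but not without the control sum of array 1 (0.72, adjusted p = 0.0547) or of array 2 (0.76, adjusted p = 0.0817).

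Hjurp, the chaperone that loads the centromeric histone, and Gadd45b, a stress and growth-arrest gene, were also called; they fall outside the rule for named genes and were chosen after their values were seen. Hjurp ran from 101 to 128 CPM in the control and stood at 168, 163, 150.3 and 156 (0.55 ± 0.10, adjusted p = 0.0057). Gadd45b ran from 96.5 to 116 CPM and stood at 149, 165, 151 and 132 (0.50 ± 0.11, adjusted p = 0.0286). Hjurp and Gadd45b lay near background, at means of 1.48 and 1.36 times it in the control and 2.21 and 2.06 times it at 72 hours. LOC118568705 rose 4.47-fold (2.16 ± 0.36), from 338 to 550 CPM to 1562, 2696, 1934 and 2042. Its probe matches 6 places on 6 chromosomes, and no role is given for it here. Hjurp was called without the 72-hour or the control sum of array 1 and not in the other 2 such fits, Gadd45b in none of the 4, and LOC118568705 in all but that without the control sum of array 2 (1.93, adjusted p = 0.126).

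The regenerating lectins, small secreted proteins made by the injured pancreas, stood high. Of 7 tested genes of the regenerating and trefoil list 2 rose and 1 (Tff2, above) fell, with a median of 1.12, and 6 lay above 0. Reg3b ran from 108 over 124 to 135 CPM in the control, at 1.55 times background, and stood at 1345, 1252, 1090 and 948 CPM at 72 hours (3.30 ± 0.68, adjusted p = 0.0177). Reg3g ran from 70.0 to 99.8 CPM and stood at 203, 268, 214 and 171 (1.29 ± 0.30, adjusted p = 0.0434). Reg2 ran from 101 over 143 to 273 CPM and stood at 975, 1147, 1163 and 985, all above the control, without being called (2.64 ± 0.68, adjusted p = 0.0799). Reg1 stood at 1.12 ± 0.40 (adjusted p = 0.243), with 7506 to 12567 CPM at 72 hours against 2691 to 6444. Reg3d stood at 0.29 ± 0.32. Reg3b was called in 1 of the 4 fits without a sum, that without the 72-hour sum of array 2, and Reg3g in none. Over the 4 fits they ranged from 3.03 to 3.61 and from 1.07 to 1.45. Without array as a term neither was called (adjusted p = 0.0517 and 0.194).

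**Figure D3:**
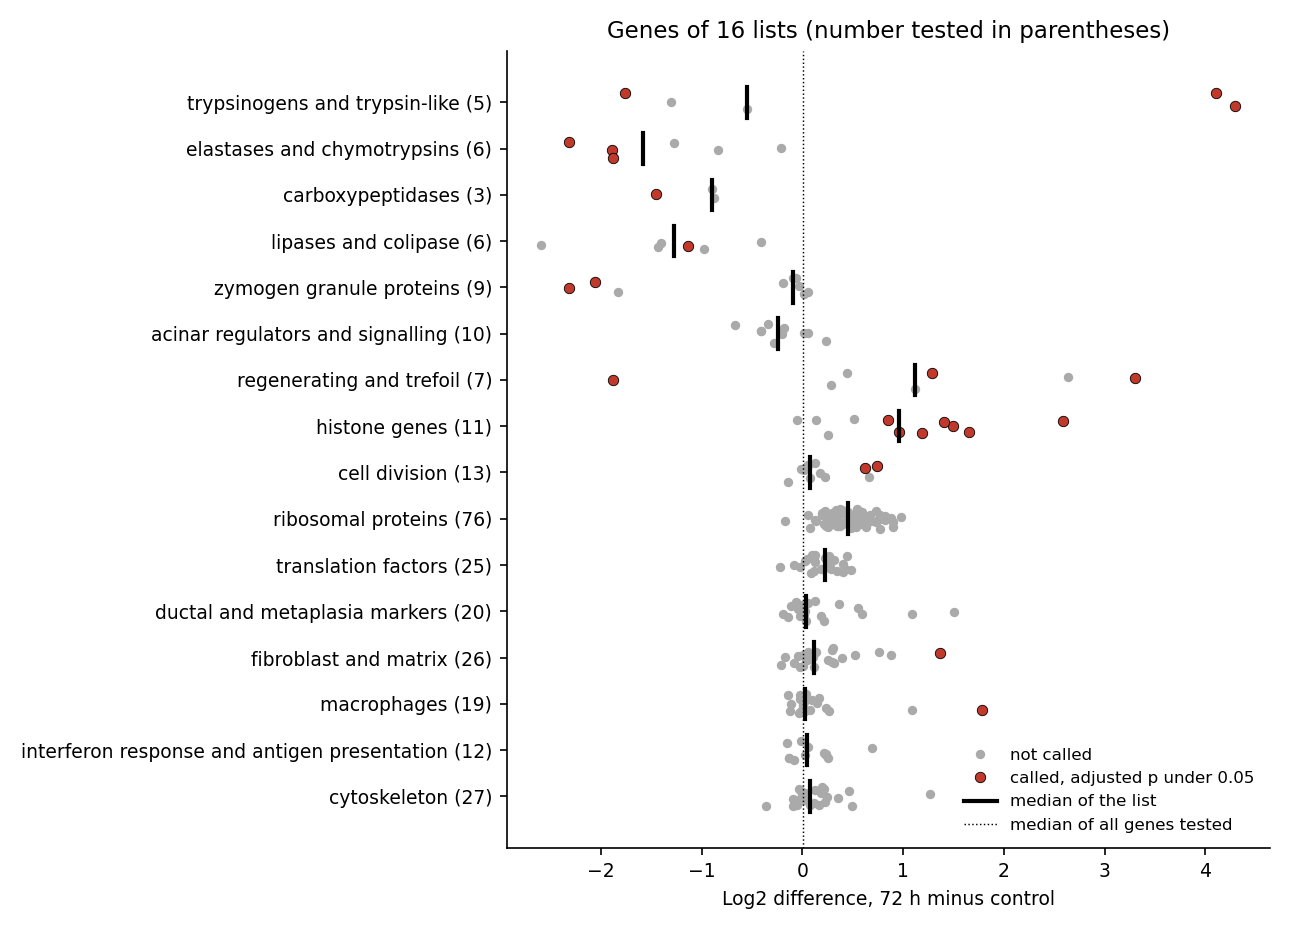
Log2 difference of 72 hours minus control for the tested genes of 16 lists (number tested in parentheses); grey points were not called, red points were, thick bars are list medians and the dotted line is the median of all genes tested. Enzyme lists lie left of the line with the 2 trypsin-like rises far to the right, histone genes lie right of it with 7 of 11 called, and ribosomal protein genes lie to the right with 0 of 76 called.

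Apoe and Mgp were the genes of the macrophage list and of the fibroblast and matrix list that rose. Apoe, a lipid carrier made in quantity by macrophages, ran from 63.7 over 79.1 to 102 CPM in the control, at 1.06 times background, and stood at 452 CPM in the array-1 region and at 160, 134 and 111 in the array-2 regions (1.79 ± 0.41, adjusted p = 0.0418). Without the array-1 region, which is the 72-hour sum of that array, it stood at 0.67 ± 0.32 and was not called (adjusted p = 0.601). Mgp, a matrix protein that restrains calcification, ran from 95.3 over 103 to 152 CPM and stood at 386, 257, 213 and 166 (1.36 ± 0.27, adjusted p = 0.0113). Without the array-1 region it stood at 0.87 (adjusted p = 0.224). Of all genes tested 1.08% were called. Of 19 macrophage genes tested 1 was called, with a median of 0.02, and of 26 fibroblast and matrix genes 1 was called, with a median of 0.11. These medians depend on how background is treated: after background subtraction they were 0.69, with 17 of 19 above 0 and 2 called, and 0.73, with 22 of 26 above 0 and 2 called. The pan-macrophage genes Adgre1 and Csf1r stood at 0.07 ± 0.13 and 0.10 ± 0.14, and 0 of the 30 measured macrophage genes exceeded 2 times background in most regions of either group. The summed macrophage genes ran from 2511 to 2709 CPM in the control and from 2634 to 3301 CPM at 72 hours, and the summed fibroblast and matrix genes from 3489 to 3714 and from 3654 to 4774 CPM. Their part in the other results was not tested. Both genes were called without the 72-hour sum of array 2, and neither was without either control sum (1.73 and 1.84 for Apoe, 1.44 and 1.29 for Mgp). Apoe was also not called without array as a term (adjusted p = 0.0713) or with scaling to the negative probes (adjusted p = 0.0633).

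The array-1 region at 72 hours stood apart from the other 3 in several lists, and single genes show by how much. Clu, the chaperone clusterin of injured acinar cells, ran from 283 to 368 CPM in the control and stood at 1444 CPM in that region against 469.9, 465 and 382 in the array-2 regions (1.51 ± 0.49, adjusted p = 0.191). Spp1, osteopontin, stood at 288 CPM there against 127 to 131, over a control of 82.0 to 107. Col1a1, a fibrillar collagen, stood at 306 against 103 to 123 CPM, and the control ran from 98.0 to 137. Krt8, a keratin of simple epithelia, stood at 297 against 156 to 168 CPM, with the control at 115 to 175. None of these 4 was called. By list, the median difference on array 1 and on array 2 was 0.34 and 0.06 for fibroblast and matrix genes, 0.23 and -0.04 for ductal and metaplasia markers, 0.40 and -0.04 for the cytoskeleton and 0.14 and 0.01 for macrophages. With 1 region in that sum, region, tissue piece and array cannot be told apart. That region also covered more tissue, 509054 µm² against 421366 µm².

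Ribosomal protein genes lay a little above the middle of all genes. Of 76 tested 0 were called, where 1.08% of all genes tested were. Above 0 lay 75 of the 76, against 1386 of all 2688 genes, and the median was 0.45. The largest differences were those of Rpl37a at 0.98 ± 0.28 (adjusted p = 0.127) and Rpl10a at 0.90 ± 0.24 (adjusted p = 0.0987). Rpl10a ran from 224 to 291 CPM in the control and stood at 550, 428, 399 and 372 CPM. In 11 of the 76 genes the 72-hour regions lay wholly above the control regions, against 80 of all 2688 genes (2.98%). The median was 0.65 on array 1 and 0.26 on array 2, it was 0.16 without the array-1 region at 72 hours, and DESeq2 called 13 of the 76 as higher. Of 25 translation factor genes 0 were called, with a median of 0.23.

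Lists for other cell types gave few values to compare. For 4 lists, the 2 tested endothelial genes, the 4 contractile smooth muscle and pericyte genes, the 3 neutrophil genes and the 20 ductal and metaplasia markers, 0 genes were called, with medians of -0.12, -0.15, -0.03 and 0.03. After background subtraction the ductal and metaplasia median was 0.44, with 1 called. Of the T and NK cell, B and plasma cell, and mast cell and eosinophil markers none passed the filter, and their 1, 4 and 4 measured genes did not exceed 2 times background in most regions of either group. The summed islet markers ran from 1178 to 1901 CPM in the control and from 1239 to 1391 CPM at 72 hours. Hba-a1, the haemoglobin gene that stands for erythrocytes, stood at 0.15 ± 0.44 and in opposite directions on the arrays (-1.19 and 0.76). Heat shock genes (8 tested, median 0.19), endoplasmic reticulum chaperones (16 tested, median 0.12), lysosomal genes (22 tested, median 0.08) and oxidative phosphorylation genes (34 tested, median 0.06) gave 0 calls. Over all genes tested 1.08% were called, so 0 calls in lists of these sizes lie near that share.

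Nuclei counted in the regions numbered 1221 ± 222 at 72 hours (SD, n = 4) and 942 ± 242 in the control (n = 7). The difference of 279 gave p = 0.103 in a 2-sided exact permutation test over regions, without array as a term. Per mm² there were 2800 ± 691 nuclei at 72 hours and 2235 ± 575 in the control (p = 0.17 by the same exact test). Regions of 1 tissue piece are not independent, so both p-values are too small. Without the array-1 region the 3 others held 1308 ± 167 nuclei and the p was 0.0167 by the same exact test. With any other single region left out the same exact test gave p from 0.0762 to 0.283. These p-values are too small for the same reason. Targets above 2 times background numbered 822 ± 311 per region at 72 hours, between 590 and 1265, against 645 ± 103 in the control (p = 0.273 by the same exact test, again too small). The 1265 were those of the array-1 region, and without it the mean at 72 hours was 674 ± 120. These measures were taken on the same regions as the genes above, and their part in the gene results was not tested.

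Between 48 and 72 hours 0 of 2688 genes were called (0%), with 68 at an unadjusted p under 0.05 in edgeR and 64 in DESeq2, which also called 0. Against 48 hours the median of the enzyme list was 0.31, that of the histone list 0.33 and that of the regenerating and trefoil list -0.26. The 22 enzyme genes summed to 132090 ± 24613 CPM at 48 hours (SD, n = 5) and 169452 ± 9924 at 72 hours (n = 4), the 11 tested histone genes to 3257 ± 424 and 4336 ± 533 CPM. Reg3b stood at 3141 ± 365 CPM at 48 hours and at 1159 ± 176 at 72 hours (-1.42 ± 0.63), and Mgp at 592 ± 300 and 256 ± 94.5 (-0.90 ± 0.26). None of these differences between 48 and 72 hours was called. At 24 hours the 11 histone genes had summed to 4980 ± 954 CPM (SD, n = 6), above their 72-hour value.

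From 72 hours to 5 days 2 genes rose (0.0744% of 2688) and 0 fell. Ifi27, an interferon-inducible gene, stood at 104 to 114 CPM at 72 hours, inside the control range of 92.5 to 116, and at 183 to 226 CPM at 5 days (0.92 ± 0.10, adjusted p = 7.42e-05). Lgals9, the lectin galectin 9, stood at 75.1 to 110 CPM at 72 hours and 142 to 181 at 5 days (0.93 ± 0.11, adjusted p = 1.50e-04). Both were under 2 times background at 72 hours. The mean level of Ifi27 exceeded 2 times background at 5 days alone (2.80 times). The filter on low counts may therefore have admitted Ifi27 through the group where it stood higher. The mean level of Lgals9 exceeded 2 times background at 12 hours, 24 hours and 5 days. With total-count scaling Lgals9 was not called (0.80, adjusted p = 0.0852), and after background subtraction the differences were 1.89 and 2.89. Against control at 72 hours neither was called. Gm10334 stood at 25734 ± 5251 CPM at 5 days (SD, n = 6) against 9133 ± 1574 at 72 hours (n = 4), without a call (1.40 ± 0.60), while the histone sum stood at 2921 ± 569 and Reg3b at 191 ± 39.0 CPM. At 30 days the enzyme sum was 397656 ± 50127 CPM (n = 7), beside 406072 ± 71139 in the control (n = 7), and the histone sum 1768 ± 78.7 beside 1784 ± 93.3.

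**Figure D4:**
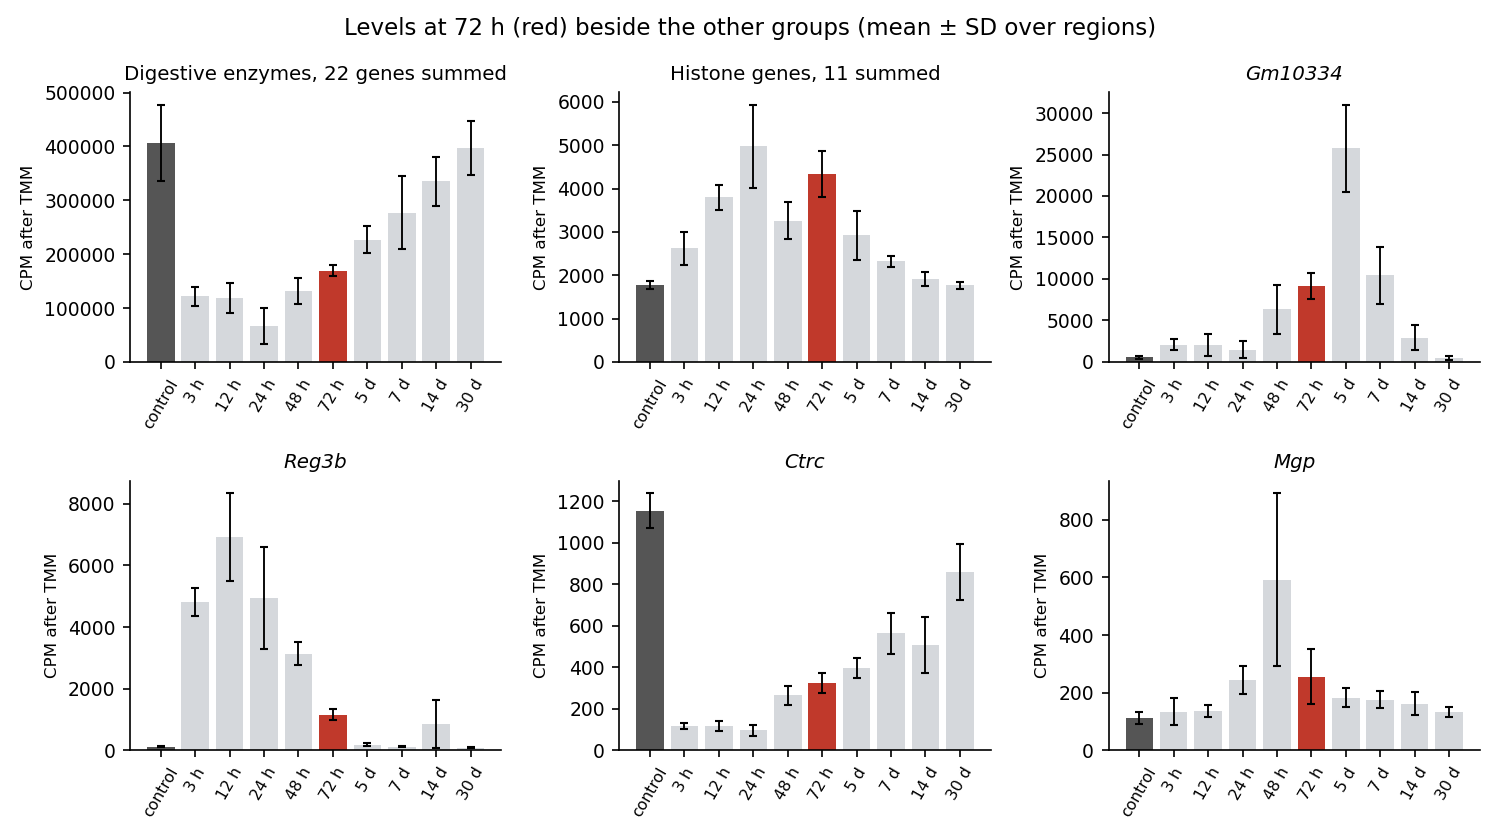
Mean ± SD over regions, in CPM, of the summed digestive enzyme genes, the summed histone genes, Gm10334, Reg3b, Ctrc and Mgp in control (dark grey), at 72 hours (red) and at the other times (light grey). At 72 hours the enzyme sum is 169452 CPM, between 66796 at 24 hours and 226934 at 5 days. The histone sum at 72 hours is 4336 CPM, above 3257 at 48 hours and 2921 at 5 days and below 4980 at 24 hours.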

How the data were processed

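Raw target counts per region were deposited with values of 3 targets not whole (tolerance 1e-06), so that the deposited table was taken to hold estimated counts and rounded; the authors used the GeoMx NGS Pipeline 2.3.3.10, per the file headers; the build (mm10) and limma are per the submitters' processing notes. Nuclei counts, region areas and a limit of quantitation on the signal scale were also deposited. Columns were joined to samples by array and region number. Counts were added per group and array (20 sums). Tested were the 2688 of 9780 targets that exceeded the negative probes 2 times over in 3 or more of the 57 regions, with edgeR 4.0.16 (quasi-likelihood, TMM, group and array, 9 residual degrees of freedom) in R 4.3.3; the SE comes from the log2 difference over the root of F. On simulated counts of this comparison edgeR called 38 of 50 genes changed 1.5-fold and 48 of 50 changed 2-fold, and also called 12 genes that had not been changed. In the measured counts larger differences from control were not called, as for Pnlip (log2 difference -2.59) and Reg2 (log2 difference 2.64). The simulated shares therefore do not show that a gene left uncalled changed less than 2-fold. Region measures used exact permutation tests (SciPy 1.17.1). Alternatives included DESeq2 1.42.0 and limma-voom (limma 3.58.1). Named genes were up to 15 called rises and 15 called falls with the same sign on both arrays, up to 6 called members of each list, list members given beside their list's count, and up to 6 called genes per direction against 48 hours and 5 days. The genes, lists and tests were chosen with earlier results of these data known. Region numbers in the titles did not pair regions (correlations of deviations from 0.00495 to 0.102).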

Additional observations from a re-analysis of the deposited data

Results flagged for a closer look

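Of 62 groups of regions examined for a single distant value, 3 had one, where chance gives about 1 in 20 groups. The 72-hour region of array 1 held 2928 CPM of the trypsin-like target 1810009J06Rik, against 1258 to 1339 CPM in the other 3 regions. The same region held 452 CPM of Apoe, against 111 to 160 CPM. Among the control regions, replicate 2 on array 1 held 669 CPM of Pla2g1b, against 417 to 498 CPM in the other 6. Ifi27 and Lgals9 were the genes that differed between 72 hours and 5 days in edgeR's test of that difference, by 0.92 and 0.93 (log2, 5 days minus 72 hours). What lies behind these values was not tested.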

How the results depend on the processing

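None of the 29 genes called at 72 hours changed direction under the alternatives that gave it a value, between 26 and 28 for each gene, nor did Ifi27 or Lgals9 from 72 hours to 5 days under 11. The 29 calls at 72 hours became 1517 with total-count scaling, 45 after background subtraction and 50 with the filter over the 11 regions. Of the 29, 24 were among those 50, and the rest did not pass that filter. The 29 calls became 93 with the 4 sums alone and 81 in DESeq2, which gave 6 of the 29 no adjusted p. With regions in place of sums the p-values are too small, and the 29 calls became 268 (57 regions) and 366 (11 regions). Also over regions, they became 124 in limma-voom with each group on each array as a random block. With the title number as a replicate block they became 146, though the numbers do not pair regions. They became 31 with 75th-percentile scaling, 29 with no filter, 28 with the filter at the limit of quantitation, 26 with negative-probe scaling and 23 without array as a term. Calls ended for Reg3b, Reg3g, Apoe, Prss2, Cpa1 and Hjurp without array as a term (adjusted p from 0.0517 to 0.194), for Apoe, Cpa1 and Stmn1 with negative-probe scaling (0.0633, 0.0986 and 0.0679), for Prss2, Cpa1 and Gadd45b with no filter (0.0593, 0.118 and 0.0881) and with the limit-of-quantitation filter (0.051, 0.102 and 0.0774), and for Pla2g1b after background subtraction (0.103). With 72-hour replicate 2 left out of its sum Apoe, Reg3g, Stmn1 and Gadd45b were not called, nor was Apoe without control replicate 7 or Reg3g without control replicate 6. The number of calls ranged from 5 to 61 with 1 sum left out and from 26 to 35 with 1 region left out of a sum of several. Against 48 hours the 0 calls became 15 with 57 regions, 4 with the random block and 5 with the replicate block. For 5 days against 72 hours the 2 calls became 1 with total-count scaling and 0 with the 11-region filter. Over regions they became 32 with 57 regions, 21 with the random block and 17 with the replicate block. The difference in nuclei ranged from 186 to 367 per region with 1 region left out, and that in targets above 2 times background from 28.9 to 254. The cause of these shifts was not tested. Depth and background limit what can be said of genes under 2 times background in the control.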
